A study of Mus musculus with 4 samples.

Results

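The genes described here are 10 genes of activated, disease-associated microglia, several of which handle lipids: Apoe, Lpl, Cst7, Spp1, Clec7a, Itgax, Gpnmb, Cd9, Ch25h and Lgals3. They were chosen by name, and each matched exactly 1 of the 42458 rows of the count table. The values come from 4 libraries, each of 50 cells from the spinal cord of a different wild-type C57BL6/J mouse (C57BL6 in the sample labels). All mice had received AAV2-CAG-tdT, an adeno-associated virus that carries the red fluorescent protein tdTomato, by intracerebroventricular injection. Slices around the central canal were dissociated with enzymes at warm temperature, and live tdTomato-positive cells were sorted for an enrichment in neurons that contact the cerebrospinal fluid (CSF-cNs). The CAG promoter is active in many cell types, and a C57BL6 preparation served as the negative control of the sort and is not analysed here. The 4 libraries form a single group, so the data give levels and the spread between mice and no contrast between conditions. The labels give neither age nor sex.

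The libraries held 83007030 to 115479640 counts. Values are CPM, counts scaled to library size with TMM factors, and lists of 4 values run from mouse 1 to mouse 4. The CSF-cN markers, 7 genes that include the channel gene Pkd2l1, summed to 19.4, 2.59, 930.5 and 831 CPM, so these markers were low in the libraries of mice 1 and 2. A list of 10 homeostatic microglia genes, those of resting microglia such as P2ry12 and Tmem119, summed to 55710.1, 55989, 34537 and 48541 CPM, between 3.59% and 5.50% of all counts. In such pooled samples, fewer cells of a type and less RNA per cell cannot be told apart.

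Microglia are the resident macrophages of the brain and spinal cord. In mouse models of neurodegeneration and demyelination, microglia near lesions lower homeostatic genes and raise a set of genes for lipid uptake and transport, lysosomal digestion and adhesion. Apoe and the receptor gene Trem2 are the best known regulators of this shift, and similar genes are active in microglia of the early postnatal white matter. Some of the genes are also used elsewhere: astrocytes make Apoe, oligodendrocytes make Cd9, some motor neurons make Spp1, and dendritic cells carry Itgax.

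Apoe and Cd9 made up 90.1% to 95.1% of the summed level of the 10 genes, which was 3807, 8269.7, 2767 and 4397 CPM. Gpnmb and Ch25h had no count in any library, 2 of 10 members against 50.2% of all rows of the table. The other 8 were tested, and edgeR's quasi-likelihood test with Benjamini-Hochberg adjustment called 5 of them above 10 CPM: Apoe, Cd9, Clec7a, Lpl and Cst7. Of all 18522 tested genes it called 36.7% above 10 CPM. It called none of the 8 below 10 CPM, also at an unadjusted p under 0.05, against 0.664% of all tested genes. limma-voom called 5 above and 0 below, with 1 below at the unadjusted p, and DESeq2 called 5 above and 0 below with no adjusted p for Spp1. The median log2 level relative to 10 CPM was 2.35 over the 8 genes and -0.07 over all tested genes.

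**Figure D1:**
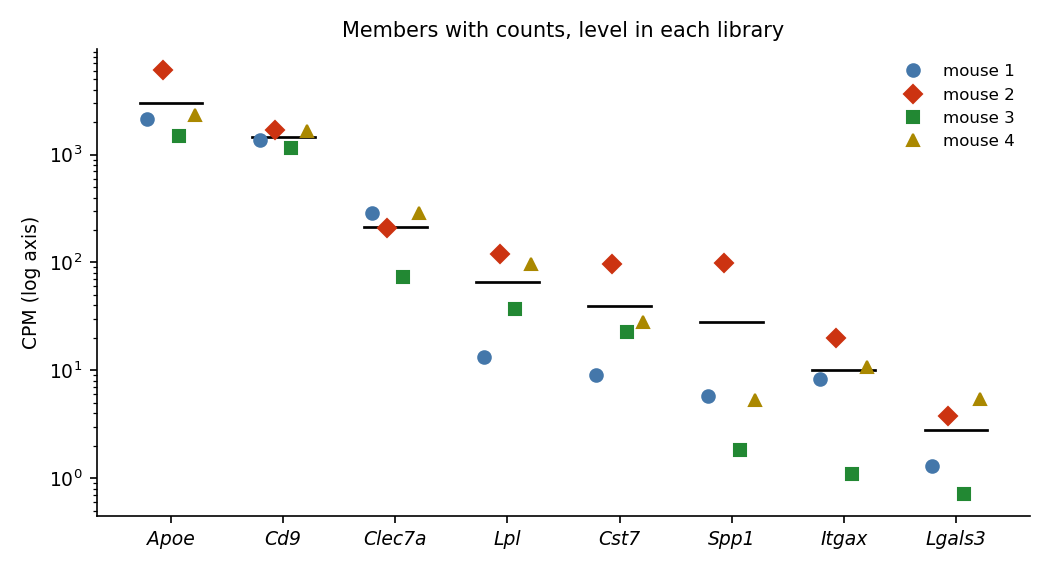
Level of the 8 genes with counts in each library, in CPM on a log axis; each symbol is the library of 1 mouse and the bar is the mean of 4. Apoe reaches 6023 CPM in mouse 2, Spp1 stands at 99.3 CPM in mouse 2 and between 1.82 and 5.76 CPM in the other mice, and Cd9 differs by only 1.49 times between its highest and lowest library. Gpnmb and Ch25h had no counts and are not drawn.

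Spp1, Cst7, Apoe and Itgax were the 4 members with the highest level in mouse 2 relative to the other mice, by ratios of 2.96 or more. Their promoters are shown so that the sequences can be compared. This choice rests on 1 library, and a shared regulation was not tested. Each is the 250 bases before the start site given by RefSeq on GRCm38.p6, at chr5:104434861-104435110 (plus strand) for Spp1, chr2:150570165-150570414 (plus strand) for Cst7, chr7:19699189-19699438 (minus strand) for Apoe and chr7:128129300-128129549 (plus strand) for Itgax. Capitals mark motif matches.
Spp1: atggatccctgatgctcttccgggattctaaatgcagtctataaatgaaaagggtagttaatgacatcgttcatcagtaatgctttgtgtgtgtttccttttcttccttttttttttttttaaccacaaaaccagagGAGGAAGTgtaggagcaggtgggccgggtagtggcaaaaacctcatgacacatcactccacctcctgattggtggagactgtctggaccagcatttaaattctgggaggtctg
Cst7: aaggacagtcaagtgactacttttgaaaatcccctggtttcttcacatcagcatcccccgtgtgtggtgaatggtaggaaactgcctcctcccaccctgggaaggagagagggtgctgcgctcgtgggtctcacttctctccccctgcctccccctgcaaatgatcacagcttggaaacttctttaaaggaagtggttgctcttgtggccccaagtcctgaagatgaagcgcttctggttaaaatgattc
Apoe: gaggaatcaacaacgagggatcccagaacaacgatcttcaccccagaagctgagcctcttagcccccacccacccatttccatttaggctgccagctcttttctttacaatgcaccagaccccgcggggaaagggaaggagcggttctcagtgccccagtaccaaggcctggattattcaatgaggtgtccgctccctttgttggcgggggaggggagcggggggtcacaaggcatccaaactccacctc
Itgax: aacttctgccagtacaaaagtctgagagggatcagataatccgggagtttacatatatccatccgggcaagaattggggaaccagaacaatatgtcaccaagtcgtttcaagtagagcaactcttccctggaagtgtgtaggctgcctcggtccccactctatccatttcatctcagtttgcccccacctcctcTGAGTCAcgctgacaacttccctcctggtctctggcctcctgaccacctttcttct
A promoter was found for 9 of the 10 members, all but Lpl, and 3 motifs were searched on both strands, with no overlap between matches. The PU.1 motif GAGGAAGT, named after a macrophage transcription factor, matched 1 of the 9, Spp1, from 113 to 106 bases before the start, and 2.42% of all 27025 promoters of this length. The AP-1 motif TGANTCA matched 1 of the 9, Itgax, from 56 to 50 bases before the start, and 6.85% of all promoters. The E-box CACGTG matched 0 of the 9 and 6.04% of all promoters. The G and C content was 43.6% for Spp1, 51.6% for Cst7, 57.2% for Apoe and 50.0% for Itgax, against a median of 52.0% over all promoters.

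Apoe codes for apolipoprotein E, the main apolipoprotein of the central nervous system, which carries cholesterol and phospholipid between cells. The gene (ENSMUSG00000002985.16) spans chr7:19696109-19699188, minus strand, in GRCm38, the assembly also called mm10, which all positions here refer to. It stood at 2123, 6023, 1489 and 2318 CPM. The library of mouse 2 was the highest by 2.60 times over the next, and mouse 3 was the lowest. The mean was 2988 ± 2054 CPM (SD, n = 4), which edgeR called above 10 CPM (log2 level 8.22, SE 0.35, adjusted p = 5.5e-09). Apoc1, the apolipoprotein gene next to it on the chromosome, had 0, 1.02, 0.383 and 0.758 CPM.

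Lpl codes for lipoprotein lipase, which releases fatty acids from triglycerides in lipoproteins. Its position is chr8:68880491-68907448, plus strand (ENSMUSG00000015568.16). It stood at 13.4, 119, 36.9 and 97.1 CPM, high in mice 2 and 4 and low in mouse 1. The mean was 66.7 ± 49.7 CPM (SD, n = 4) and was called above 10 CPM (edgeR log2 level 2.74, SE 0.48, adjusted p = 5.6e-04). Of 8 genes that regulate the enzyme, 2 were called above 10 CPM: Lmf1, needed for folding of the lipase in the endoplasmic reticulum (67.8, 47.9, 50.6 and 39.4 CPM), and Sel1l, which acts with it (61.1, 72.7, 106 and 40.2 CPM). The inhibitor genes Angptl4 and Angptl8, and Gpihbp1, which anchors the lipase on capillaries, had no count.

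Ch25h codes for cholesterol 25-hydroxylase, which makes the oxysterol 25-hydroxycholesterol in macrophages. The gene (ENSMUSG00000050370.5) spans chr19:34473778-34475164, minus strand. It had no count in any library, which allows up to 0.0278, 0.0321, 0.0348 and 0.0334 CPM (3 counts per library, counting error only). Cyp7b1, whose product breaks 25-hydroxycholesterol down, was at 0, 0.0107, 1.09 and 0 CPM. The gene beside Ch25h, Lipa, which codes for lysosomal acid lipase, was at 175, 136, 129 and 159 CPM. The annotation also has Gm26902, which shares 159 exonic bases with Ch25h and is not analysed here.

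Spp1 codes for osteopontin, a secreted phosphoprotein that binds integrins and CD44. The annotation places it (ENSMUSG00000029304.14) at chr5:104435118-104441050, plus strand. It had 622, 9280, 157 and 481 counts, or 5.76, 99.3, 1.82 and 5.36 CPM. The library of mouse 2 was 17.2 times the next highest, and its 95% Clopper-Pearson interval, 97.3 to 101 CPM, lay far from those of the other mice, which reached at most 6.23 CPM. These intervals cover counting error only. The mean of 28.1 ± 47.5 CPM (SD, n = 4) was not separated from 10 CPM (edgeR log2 level 1.49, SE 0.91, adjusted p = 0.186), and without mouse 2 the level was -1.20 (adjusted p = 0.403). The annotation has another gene, Gm42793, that shares 309 exonic bases with Spp1 and is not analysed here. Of 9 genes for receptors of Spp1 and for Clec7a signalling, 5 were called above 10 CPM and 0 below. The integrin subunit gene Itgav was at 120.3, 87.0, 74.7 and 95.0 CPM, Itgb5 at 1357, 1657, 949 and 1284 CPM, and Cd44, which was not called, at 0.676, 9.06, 17.6 and 12.6 CPM.

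Cst7 codes for cystatin F, an inhibitor of lysosomal cysteine proteases. Its position is chr2:150570415-150578944, plus strand (ENSMUSG00000068129.5). It stood at 9.06, 96.4, 22.5 and 28.3 CPM, highest in mouse 2 by 3.41 times over the next and lowest in mouse 1. The mean was 39.1 ± 39.1 CPM (SD, n = 4), called above 10 CPM (edgeR log2 level 1.97, SE 0.52, adjusted p = 0.00808). This call was lost without mouse 2 (log2 level 1.00, adjusted p = 0.111). The cathepsin L gene Ctsl, a cysteine protease of the lysosome, was at 1597, 1836, 1179 and 1647 CPM and thus varied less between mice.

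Lgals3 codes for galectin-3, a sugar-binding protein that gathers at damaged lysosomes. The gene (ENSMUSG00000050335.17) spans chr14:47367751-47386160, plus strand. It stood at 1.31, 3.76, 0.707 and 5.45 CPM. Mouse 4 was the highest, whereas Apoe, Lpl, Cst7 and Spp1 were highest in mouse 2. Its mean of 2.81 ± 2.20 CPM (SD, n = 4) was not separated from 10 CPM by edgeR (log2 level -1.83, SE 0.93, adjusted p = 0.251), although every library lay below 10 CPM. On simulated data edgeR called 0 of 97 genes at 2.5 CPM below 10 CPM, so the test cannot decide at this level. With the authors' deposited log2 values, limma called it below 10 CPM (adjusted p = 0.0290), 1 of 7001 such calls among 18501 genes.

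Cd9 codes for a tetraspanin that organises integrins and other membrane proteins. The annotation places it (ENSMUSG00000030342.8) at chr6:125460266-125494791, minus strand. It stood at 1358, 1699, 1142 and 1646 CPM, nearly level over the mice. Averaging 1461 ± 260.2 CPM (SD, n = 4), it was called above 10 CPM (edgeR log2 level 7.19, SE 0.17, adjusted p = 1.4e-09). An opposite-strand transcript, Gm26728, shares 218 exonic bases with it and had 1489, 1721, 692 and 198 counts, against 98509 to 158737 counts of Cd9. The 10 oligodendrocyte markers summed to 15065, 238, 19259.6 and 459 CPM, and Cd9 was higher in both libraries where that sum was low.

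Clec7a codes for Dectin-1, a receptor for fungal beta-glucans that signals through the kinase Syk and the adaptor Card9. Its position is chr6:129461591-129472779, minus strand (ENSMUSG00000079293.11), where the annotation classes it as a polymorphic pseudogene. It stood at 288, 209, 73.0 and 287 CPM. The library of mouse 3 was the lowest, and mouse 2 was not the highest, unlike Apoe, Lpl, Cst7 and Spp1. The mean was 214 ± 101 CPM (SD, n = 4), called above 10 CPM (edgeR log2 level 4.42, SE 0.32, adjusted p = 1.4e-06). Syk was at 52.1, 68.8, 24.7 and 48.5 CPM, also lowest in mouse 3, and Card9 at 9.60, 11.6, 10.2 and 3.38 CPM. The next gene on the chromosome, the oxidised-lipoprotein receptor gene Olr1, was at 4.31, 12.8, 0 and 44.0 CPM.

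Itgax codes for CD11c, an integrin alpha chain that pairs with the beta chain of Itgb2. The gene (ENSMUSG00000030789.9) spans chr7:128129547-128150657, plus strand. It stood at 8.37, 19.9, 1.09 and 10.8 CPM, highest in mouse 2 and lowest in mouse 3. Its mean, with an SD of 7.77 CPM (n = 4), was not separated from 10 CPM (edgeR log2 level 0.00, SE 0.66, adjusted p = 0.995). Itgb2 was at 399.9, 463, 269.9 and 446 CPM, also lowest in mouse 3, and the neighbouring alpha chain gene Itgad had 0.00926, 0, 1.29 and 0 CPM. Of 8 dendritic cell markers, 0 were called above 10 CPM (0 at an unadjusted p under 0.05 by edgeR), as Itgax itself was not. The list summed to 17.8, 9.85, 4.58 and 17.4 CPM with Cd209a and Ccr7 at 0. Zbtb46 was at 0.0833, 6.75, 3.38 and 9.91 CPM, Itgae at 8.40, 2.75, 0.522 and 3.16 CPM and Clec9a at 9.21, 0.0107, 0.0116 and 0 CPM. The other markers of the list were lower on average. Some of these values came near those of Itgax, and the part of dendritic cells in its level was not tested.

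Gpnmb codes for a glycoprotein of lysosomes and melanosomes that is strongly raised in lipid-laden macrophages. The annotation places it (ENSMUSG00000029816.10) at chr6:49036546-49070929, plus strand. All 4 libraries were without a count. Over the libraries together a count of 0 allows a level of up to 0.00795 CPM (3 counts over the group, counting error only). The next gene, Malsu1, was counted at 11.5, 14.4, 12.4 and 17.1 CPM.

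Levels of different genes were compared per kilobase of exonic length. In this unit the order was Apoe (1398 ± 961 CPM per kb), Cd9 (715 ± 127), Clec7a (81.2 ± 38.3), Cst7 (39.6 ± 39.6), Spp1 (17.0 ± 28.8), Lpl (6.36 ± 4.74), Itgax (2.09 ± 1.62) and Lgals3 (1.51 ± 1.18; SD, n = 4 each). Of the 7 neighbouring pairs, 3 kept their order in every mouse: Apoe over Cd9 (mean log2 ratio 0.77 ± 0.67), Cd9 over Clec7a (3.30 ± 0.76) and Cst7 over Spp1 (2.35 ± 1.62). When the signs of the 4 mice were flipped in every way (exact permutation, two-sided), each of these reached the smallest p allowed, 2 of 16 sign patterns, so no pair can pass 0.05, and p was 0.292 after adjustment over the 7 pairs. Clec7a lay above Cst7 in 3 of 4 mice (1.36 ± 1.74, exact p = 0.375, adjusted 0.525) and Lpl above Itgax in 3 of 4 (1.62 ± 1.61, exact p = 0.250, adjusted 0.438). Spp1 and Lpl (0.18 ± 2.02, exact p = 1.00, adjusted 1.00) and Itgax and Lgals3 (0.32 ± 0.91, 8 of 16 sign patterns, exact adjusted p = 0.583) were each higher in 2 of 4 mice, less than their spread. The position of Lpl depends on its length, which is 10478 bases over all exons and 4115 bases in the longest transcript; with the longest transcript, Lpl stood above Spp1 (log2 ratio of Spp1 over Lpl -1.02).

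**Figure D2:**
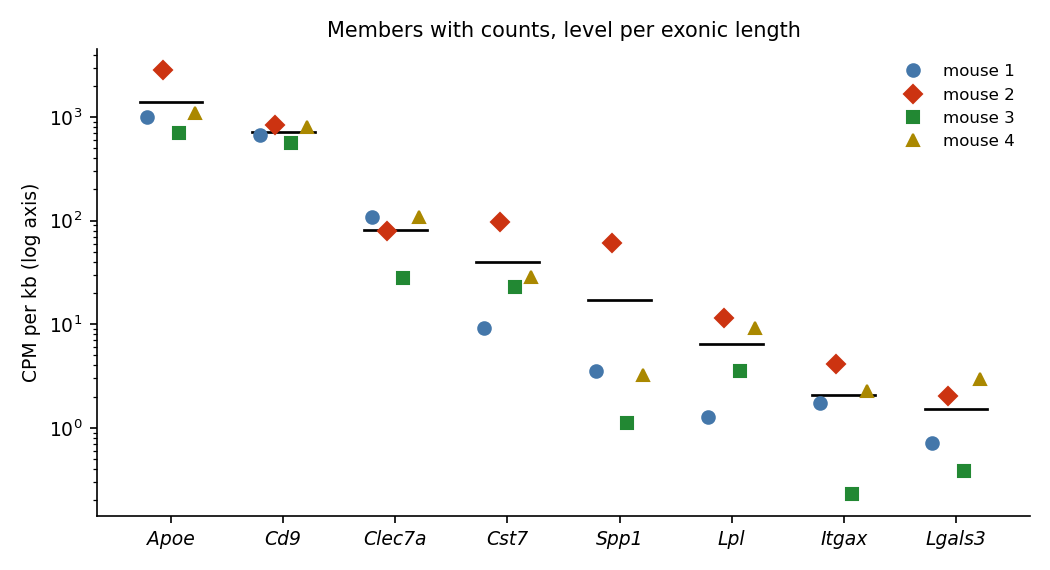
Level of the 8 genes with counts per kilobase of exonic length, in CPM per kb on a log axis, ordered by the mean of 4 mice (bar); each symbol is the library of 1 mouse. Apoe and Cd9 rank first and second in every mouse, at means of 1398 and 715 CPM per kb, and the symbols of Spp1 and Lpl overlap.

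The spread between mice differed widely among the members. The SD of log2(CPM + 1) was 0.27 for Cd9, below the median of 0.50 over the 9125 genes that averaged 10 CPM or more, and 2.25 for Spp1. Over the 7 members with such an average the median SD was 1.35. Of these, Spp1 and Itgax reached 10 CPM only through mouse 2, so the filter let in their spread. Over the 5 members that averaged 10 CPM or more in mice 1, 3 and 4 (Apoe, Lpl, Cst7, Clec7a and Cd9) the median SD was 0.93, against 0.50 over the 9158 genes that did so. The 5 had SDs of 0.86, 1.41, 1.35, 0.93 and 0.27. The repeat runs of a mouse differed by at most 0.01 on the log2 scale for Apoe and Cd9, 0.13 for Cst7, 0.29 for Lpl and 0.36 for Spp1. The last value came from the library of mouse 3 with only 157 counts. The median SD of the 7 was 0.81 without mouse 2 and 0.83 without mouse 3.

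Of all 8 members with counts, 6 were highest in mouse 2, against 25.1% of the 21132 genes with counts. In 5 of the 8 (Apoe, Lpl, Cst7, Spp1 and Itgax) mouse 2 was at least 2 times the mean of mice 1, 3 and 4, against 14.3% of these genes. Of the 7 members that averaged 10 CPM or more over the 4 mice, the counts were 6 and 5, against 29.4% and 6.26% of the 9125 genes, but Spp1 and Itgax were among the 7 only because of mouse 2 itself. When mouse 2 was left out of the filter, 4 of the remaining 5 were highest in mouse 2, against 27.2% of the 9158 genes, and 3 of the 5 (Apoe, Lpl and Cst7) reached 2 times, against 4.56%. The ratio was 23.0 for Spp1, 4.83 for Cst7, 3.05 for Apoe, 2.96 for Itgax and 2.43 for Lpl, while it was 1.23 for Cd9 and 0.968 for Clec7a. These ratios set 1 library against 3 and have no test.

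Homeostatic microglia genes did not reach a ratio of 2, and neither did the members Cd9 and Clec7a. Of 10 homeostatic genes, 6 were highest in mouse 2 but 0 reached 2 times the mean of the other mice, and their median ratio was 1.26. Their highest ratio was 1.91, for Sall1, the least abundant of them at a mean of 277 CPM. The lists differ in level, as Lpl, Cst7 and Spp1 averaged 66.7, 39.1 and 28.1 CPM, and the part of level in the ratios was not tested. The median ratio of the 5 members that passed the filter without mouse 2 was 2.43, the value of Lpl. Of 22 other genes of the disease-associated programme, 20 were called above 10 CPM, 21 had a mean of at least 10 CPM, 13 were highest in mouse 2 and 0 reached 2 times. Among them Trem2 was at 470.2, 688, 406 and 577 CPM, and its signalling partner Tyrobp at 1292, 2092, 1006 and 1643 CPM. The Trem2 values are those of the row with exactly that name, and any further row for that gene was not added. The lysosomal protease gene Ctsd was at 11942, 14476, 6884 and 12057 CPM. Axl, a receptor for apoptotic cells, was at 34.0, 58.4, 35.8 and 34.3 CPM. The ferritin gene Fth1 was at 6625, 3622, 8368 and 3079 CPM, high in mice 1 and 3, where the oligodendrocyte markers were also high; the part of that RNA was not tested. Igf1, a growth factor gene of the programme, had 1.28, 2.60, 3.12 and 0 CPM, all under 10 CPM. The edgeR test, which has little power at such levels, did not separate it from 10 CPM.

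**Figure D3:**
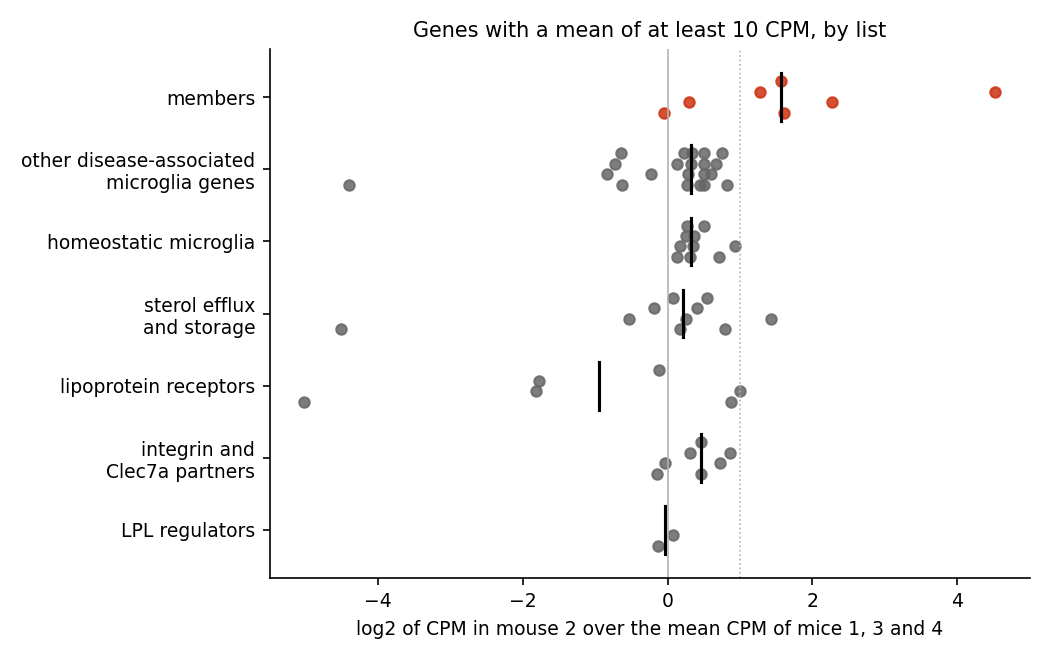
Log2 of the CPM in mouse 2 over the mean CPM of mice 1, 3 and 4 for each gene averaging 10 CPM or more, by gene list; each point is a gene, the black bar the median of the list, the solid line a ratio of 1 and the dotted line a ratio of 2. Of the members, 5 of 7 lie past a ratio of 2, but 2 of them, Spp1 and Itgax, average 10 CPM only through mouse 2; without these, 3 of 5 do, against 0 of 10 homeostatic and 0 of 21 other disease-associated microglia genes.

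The summed level of the 10 members was 6.83%, 14.8%, 8.01% and 9.06% of the homeostatic sum of the same library, highest in mouse 2. Apoe, which was 72.8% of the members' sum in mouse 2, alone was 3.81%, 10.8%, 4.31% and 4.77% of the homeostatic sum. After this division mouse 2 was the highest for Apoe, Lpl, Cst7, Spp1 and Itgax, and mouse 4 for Cd9, Clec7a and Lgals3. The SD of the log2 ratio to this sum, beside that of log2 CPM, was 2.25 and 2.47 for Spp1, 1.40 and 1.41 for Cst7, 1.46 and 1.45 for Lpl and 1.51 and 1.82 for Itgax. For Apoe the values were 0.68 and 0.86, and for Clec7a 0.66 and 0.94. The share of Cd9 was lowest in mouse 1 (2.44%, 3.03%, 3.31% and 3.39%), so its lower CPM in mouse 3 went with a lower homeostatic sum.

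**Figure D4:**
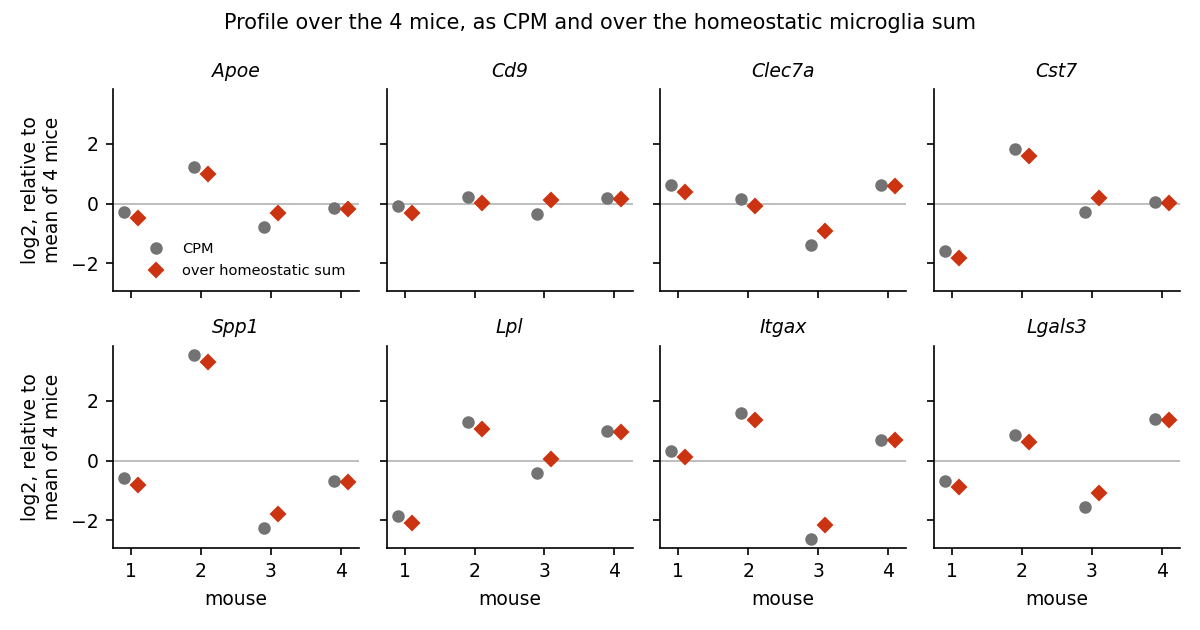
Profile of each of the 8 genes with counts over the 4 mice, as log2 of CPM (grey circles) and log2 of the ratio to the homeostatic microglia sum of the same library (red diamonds), each relative to its mean over the 4 mice. For Spp1, Cst7 and Apoe mouse 2 is the highest on both scales, and Clec7a is lowest in mouse 3 on both.

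Markers of other macrophages and glia were set beside these values. The 8 border-associated macrophage markers summed to 149.8, 121, 77.4 and 108 CPM, so mouse 2 was not the highest. Of them 7 had counts and Lyve1 had none. The scavenger receptor gene Cd163 had most of its counts in mouse 2 (0.0278, 7.93, 0 and 0 CPM), the library where Spp1 was high. Stab1 (56.8, 75.9, 24.5 and 36.9 CPM) and Cbr2 were also highest in mouse 2. In contrast, Mrc1 (38.2, 16.4, 36.5 and 30.3 CPM), Pf4 and Ms4a7 were lowest there, and F13a1 was neither. The part of such cells in the level of Spp1 was not tested. Of 8 monocyte and neutrophil markers, 6 had no count, and the list summed to 0, 2.99, 0.742 and 0.769 CPM. The 10 astrocyte markers summed to 120.4, 146, 63.2 and 173 CPM, mostly from Slc1a3, and Aqp4, the water channel of astrocyte endfeet, was at 0.00926, 0.182, 0.707 and 5.45 CPM. Gfap was at 3.91, 23.4, 7.79 and 0 CPM, also highest in mouse 2, and the part of astrocytes in the level of Apoe was not tested. In sum, oligodendrocyte precursor markers had 0.176, 0.631, 23.3 and 17.9 CPM, ependymal markers 0.00926, 0.546, 13.7 and 73.4 CPM, fibroblast markers 8.37, 0.107, 994 and 109 CPM and neuronal markers 45.9, 98.1, 751 and 343 CPM, each lower in mice 1 and 2 than in mice 3 and 4. In mice 3 and 4 the fibroblast sum was nearly all Dcn (1.41, 0.0963, 989 and 108 CPM). Another marker, Col1a2, was highest in mouse 1 (6.96, 0.0107, 5.04 and 0 CPM), and 3 of the 6 had no count. A list of 16 immediate early, heat shock and cytokine genes that respond to tissue dissociation summed to 22124, 14747, 7606 and 12339 CPM. It was highest in mouse 1, where Lpl and Cst7 had their lowest values and Clec7a its highest. It was lowest in mouse 3, where Apoe, Spp1, Clec7a, Itgax, Cd9 and Lgals3 were also lowest. The part of dissociation in the members' levels was not tested.

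Of 8 lipoprotein receptor genes, 4 were called above 10 CPM and 0 below. Lrp1, a receptor for Apoe, was at 94.5, 204, 70.3 and 141 CPM and Scarb1, a receptor for high-density lipoprotein, at 22.9, 53.5, 18.6 and 45.7 CPM, both highest in mouse 2. Of 12 genes of sterol efflux, storage and lysosomal release, 9 were called above 10 CPM and 0 below. Abca1, which loads cholesterol onto Apoe, was at 74.6, 217, 65.6 and 102 CPM, in the same order of mice as Apoe (2, 4, 1 and 3 from high to low). It was the only member of this list at least 2 times higher in mouse 2 than the mean of the others. Abcg1, another sterol exporter gene, was at 7.75, 26.1, 13.7 and 23.8 CPM and was not separated from 10 CPM (edgeR adjusted p = 0.119). Npc2, which moves cholesterol out of lysosomes, differed little, at 476, 512, 489.9 and 499 CPM. The lipid droplet gene Plin3 had 194, 6.49, 243 and 7.38 CPM, high in the libraries with oligodendrocyte RNA, and its source was not tested. Nr1h3, the gene of a sterol-sensing nuclear receptor, was at 0, 0, 0.0580 and 0.535 CPM, and its relative Nr1h2 at 40.2, 39.7, 28.2 and 32.1 CPM.

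Genes with the most similar profile over the 4 mice were listed for the 3 members with the largest SD. Likeness was the root mean square difference of log2(CPM + 1) after centring each gene on its own mean, among 9118 genes averaging 10 CPM or more. For Spp1 no gene came within 0.5, and the nearest were Tspan18 (difference 0.88), Gm46371 (0.97) and Kif21b (1.00). For Itgax 49 genes came within 0.5, and the nearest were the interferon-induced gene Mx1 (0.09), the chemokine gene Ccl12 (0.16) and Rbm15 (0.16). For Lpl 66 genes did so, and the nearest were Bcl2l13 (0.11), Plagl2 (0.16) and Tbc1d2b (0.16). These genes are named as a description over 4 mice.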

How the data were processed

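The deposited count table holds raw read counts in whole numbers, 2 columns per mouse, made by the authors, and a second deposited table holds log2 values that equal log2(summed counts divided by a size factor, plus 1). The tools STAR, RSEM, DESeq2, Trim Galore and FastQC and the build mm10 are named per the submitters' processing notes, without roles, settings or annotation. Per the labels' protocols, cDNA was made with SMART-Seq v4 (11 PCR cycles) and libraries with Nextera XT, so counts are unstranded, grow with transcript length and carry no molecular identifiers.

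Column numbers were taken as mouse numbers, and the 2 runs of a mouse were summed. CPM used edgeR 4.0.16 TMM factors (0.935, 0.982, 1.04 and 1.05) in R 4.3.3. The level test was edgeR's quasi-likelihood F test of an intercept-only model against 10 CPM, over 18522 genes with at least 10 counts over the 4 libraries, Benjamini-Hochberg adjusted, threshold 0.05. Because the tool's test function needs more than an intercept, F was computed from the fitted deviances with its Poisson bound. The printed SE is the quasi-likelihood SE of the log2 level. On simulated data edgeR called 90 of 99 genes at 160 CPM, 70 of 98 at 40 CPM, 0 of 98 at 10 CPM and 0 of 97 at 2.5 CPM, so it has little power below the threshold, while limma-voom called 44 of 97 at 2.5 CPM but also 25 of 98 at 10 CPM below. The mice are separate animals of 1 group. Each level p-value sets a gene's mean against 10 CPM, with an error estimated from these 4 mice and moderated over all tested genes. Lengths and positions come from GENCODE M21 on GRCm38, which held all 10 members. Alternatives used limma 3.58.1 and DESeq2 1.42.0, and the other steps matplotlib 3.10.9, scipy 1.17.1, pandas 2.3.3 and numpy 2.4.6 under Python 3.11.15.

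The members and the 17 other lists were chosen with earlier results of these data known. By rule, the genes named are the members, up to 4 of the most abundant genes of each list, the nearest profiles of 3 members and overlapping genes. Genes beside a member on the chromosome, the promoter motifs and other list genes (Trem2, Tyrobp, Axl, Ctsl, Igf1, Sall1, Syk, Card9, Cd44, Abcg1, Nr1h2, Nr1h3, Cyp7b1, Cd163, Cbr2, Pf4, Lyve1, Aqp4, Cd209a, Ccr7 and the uncounted lipase regulators) were named after their values were seen.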

Additional observations from a re-analysis of the deposited data

How the results depend on the processing

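The count of 5 members called above 10 CPM was 4 to 5 when any mouse was left out, 5 without mice 1 and 2 (an alternative chosen after seeing the data, for their few CSF-cN marker counts), and 5 with DESeq2 size factors, with no filter, with DESeq2, limma-voom, either run alone or the deposited log2 values. It was 7 against a level of 1 CPM and 3 against 100 CPM, and the count below was 2 against 100 CPM and 1 with the deposited values. Over all genes, 6795 calls above became 10954 at 1 CPM and 1078 at 100 CPM. The 123 calls below became 2485 with no filter, 2049 with DESeq2, 6164 with limma-voom, 7001 with the deposited values, 6 at 1 CPM, 9029 at 100 CPM, 30 and 50 with the first and the second run, and 0 without any single mouse or without mice 1 and 2. On simulated data limma-voom called 25 of 98 genes set at 10 CPM and 15 of 98 set at 40 CPM below 10 CPM, DESeq2 3 and 1 of 98, and edgeR 0; the cause of the other changes was not tested. Against 100 CPM the log2 levels of Lpl, Cst7 and Itgax were -0.59, -1.36 and -3.32, since that level lies above their means.

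The order by length had 3 pairs alike in all mice, 3 to 4 without a mouse and 5 with no division by length. These counts take only pairs that kept the direction of the main order. With no division, Lpl lay above Spp1 in every mouse, the reverse of that order, and this pair is not counted. The log2 ratio of Spp1 over Lpl turned to -1.02 with the longest transcript, -2.47 with no division, and lay between -0.56 (without mouse 2; -0.23 without mouse 1) and 0.77 when 1 mouse was left out. The median SD of log2 (1.35) was 0.81 to 1.53 without a mouse, 0.93 with mouse 2 left out of the filter on low values (chosen after seeing the data) and 1.14 with no such filter; the count of members at least 2 times higher in mouse 2 was then 3 and 5. The median log2 ratio to the homeostatic sum was -9.93, and -5.98 to the median of that list, which is a smaller quantity. The median SD of the ratio to the sum (1.40) was 0.74 to 1.61 without a mouse. These medians are over the 7 members averaging 10 CPM or more, Spp1 and Itgax only through mouse 2. For the 5 that pass without mouse 2 (Apoe, Lpl, Cst7, Clec7a and Cd9), the SDs were 0.68, 1.46, 1.40, 0.66 and 0.22. Their median was 0.68, the value of Apoe. No paired analysis was possible because there is only 1 group. No library passed Dixon's test at 4 samples on log2(CPM + 1), for the 8 genes with counts and the sum of the 10. Even Spp1 did not pass, although mouse 2 was 17.2 times the next highest library in CPM. With only 4 values the test has little power, so it cannot decide whether a library lay apart.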
